A study of Arabidopsis thaliana with 121 samples.

Results

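The nuclear photosynthesis genes described here are 46 Arabidopsis loci, named by locus identifier: 14 antenna genes of photosystem II (LHCB), 6 antenna genes of photosystem I (LHCA), 12 subunits of photosystem I, 10 subunits of photosystem II and 4 small subunits of Rubisco (RBCS). The deposited tables held 68157 loci in the first set of libraries and 68159 in the second. Of the 46, 45 passed the filter of at least 10 reads in at least 3 libraries in both sets. The exception was PSAD2 (AT1G03130), a photosystem I subunit, whose reads lay almost wholly on a joined locus with its neighbour AT1G03140 (148304 counts over the first set, against 42 on PSAD2 alone). PSAD2 therefore has no value of its own, and the joined locus is given apart.

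Transcripts of rosette leaves were counted by 3′-tag mRNA-seq, in which each mRNA molecule gives 1 tag near its end. Levels are given in CPM, counts scaled to a common library size, and can be set side by side between genes without a length correction. The first set has 39 libraries of pooled plants of 31 days in 16 genotypes, and the second has 82 libraries of single plants of 28 days in 17 groups. The study asked how CDCA7, a zinc-finger partner of the chromatin remodeller DDM1, contributes to DNA methylation and to the silencing of transposable elements. All plants are in the Col-0 background.

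In the first set, 9 genotypes carry ddm1-2, a loss-of-function allele of DDM1: F2_ddm1 (first homozygous generation), ddm1_2_G2 and ddm1_2_G5 (later selfed generations), ddm1_cdca7a_1 and F2_ddm1_cdca7a_2 (T-DNA alleles of CDCA7α crossed in, in the promoter for cdca7a_1 and in the coding sequence for cdca7a_2), ddm1_cdca7b_1 and ddm1_cdca7b_2 (CRISPR alleles of CDCA7β), and ddm1_cdca7ab_1 and ddm1_cdca7ab_2 (both genes mutated by CRISPR). The other 7 have an intact DDM1: cdca7a_1 and cdca7a_2 (T-DNA alleles), cdca7b_1 and cdca7b_2 (CRISPR), cdca7ab_1 (T-DNA allele of CDCA7α with CRISPR in CDCA7β), cdca7ab_2 (CRISPR in both) and the wild type Col_0. Each genotype has 2 or 3 libraries. In the second set, cdca7_ab and cdca7_a plants carried transgenes of CDCA7α as primary transformants: the tagged protein (CDCA7), forms without the C or N terminus (dCter, dNter), point mutants (C183S_C209S, R35A_N42L) and constructs under the promoter of a natural allele (p6966) with deletions in it (d4nt, d26nt). A no_YFP group lacked the seed marker of the transgene, and cdca7_ab, cdca7_a, cdca7_b and WT plants were untransformed, with 2 to 7 plants per group. Each primary transformant is its own insertion event, so construct groups mix insertions.

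Light-harvesting proteins bind chlorophyll around the photosystem cores and pass excitation energy to them, and the nuclear subunits of both photosystems complete cores whose reaction centres are encoded in the plastid. Rubisco fixes CO2, with small subunits from the nuclear RBCS family and a large subunit from the plastid. These genes are among the most strongly transcribed in leaves, and they are known to respond to light, the circadian clock, plastid signals, sugars and leaf senescence.

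Promoters of members that the results turn on are shown with the 250 bases before the annotated start (RefSeq annotation of TAIR10.1), 5′ to 3′ in the direction of the gene. LHCB1.4 and RBCS1A were the members called higher in all 3 ddm1 generations, LHCB1.1 is a paralogue of LHCB1.4, and RBCS2B holds the most motif matches of the RBCS family. Capitals mark matches on either strand to the G-box (CACGTG), the I-box (GATAAG), the evening element (AAAATATCT) or the CCA1-binding site (AAAAATCT). The windows are chr2:14524357-14524606 on the plus strand for LHCB1.4, chr1:10475970-10476219 on the minus strand for LHCB1.1, chr1:25049668-25049917 on the minus strand for RBCS1A and chr5:15382072-15382321 on the minus strand for RBCS2B.
LHCB1.4: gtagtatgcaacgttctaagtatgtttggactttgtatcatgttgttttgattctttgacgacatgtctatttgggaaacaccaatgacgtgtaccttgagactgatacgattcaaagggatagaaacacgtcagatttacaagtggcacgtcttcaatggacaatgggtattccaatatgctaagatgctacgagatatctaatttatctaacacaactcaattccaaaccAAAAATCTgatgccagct
LHCB1.1: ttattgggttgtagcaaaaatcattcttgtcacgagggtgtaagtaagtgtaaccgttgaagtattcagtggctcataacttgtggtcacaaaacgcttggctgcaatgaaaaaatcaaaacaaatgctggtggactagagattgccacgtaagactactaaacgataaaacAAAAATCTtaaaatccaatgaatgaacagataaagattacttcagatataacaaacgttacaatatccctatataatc
RBCS1A: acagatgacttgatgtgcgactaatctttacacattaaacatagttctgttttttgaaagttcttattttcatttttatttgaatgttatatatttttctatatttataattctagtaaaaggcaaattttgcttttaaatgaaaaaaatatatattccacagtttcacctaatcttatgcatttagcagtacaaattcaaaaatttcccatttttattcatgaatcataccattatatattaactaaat
RBCS2B: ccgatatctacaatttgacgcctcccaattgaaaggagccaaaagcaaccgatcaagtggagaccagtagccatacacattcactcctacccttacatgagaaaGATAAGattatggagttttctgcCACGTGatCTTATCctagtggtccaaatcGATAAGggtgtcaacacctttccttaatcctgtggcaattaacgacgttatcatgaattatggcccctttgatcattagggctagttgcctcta
LHCB1.4 had a CCA1-binding match 18 bases before its start and LHCB1.1 had one at 78 bases. RBCS2B held 3 I-box matches and 1 G-box match, and the RBCS1A window held none of the 4 motifs. Over all 46 members, 9 windows held a G-box (19.6%, against 6.49% of 27437 promoters), 10 an I-box (21.7%, against 12.3%), 5 a CCA1-binding match (10.9%, against 6.69%) and 1 an evening element (2.17%, against 2.36%). A CCAAT box (letters CCAAT, either strand) stood in 29 member windows (63%, against 46% of all promoters), among them 13 of the 14 LHCB windows. These matches describe letters in the window only. Each window ends at the outermost annotated start of the gene, which need not be the start used in leaves. Sequence outside the window was not searched, so a window without a match, as in RBCS1A, does not show that the gene lacks the motif.

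Library totals ran from 2087906 to 4439880 counts in the first set and from 1194655 to 5206136 in the second. Transcripts of the plastid genome made up 5.55% to 43.9% of the counts in the first set and 4.39% to 22.9% in the second. The mutated genes were close to the detection limit. DDM1 had 0 to 5 reads in every library of the first set, and CDCA7β at most 2, so neither label could be checked by its own transcript. CDCA7α had 41 to 66 reads in the libraries labelled cdca7a_1 and 33 to 38 in those labelled ddm1_cdca7a_1, against 0 to 5 in Col_0. Per the study, the T-DNA of this allele lies in the promoter and raises CDCA7α expression, so these are overexpressing lines and the reads go with their labels. Copies of a family differ at their annotated ends. The last 300 transcript bases were 45.4% to 58.8% identical between LHCB1 copies, and unrelated members were 51.4% identical there at the median. The coding sequences of the LHCB1 copies were 86.8% to 96.4% identical. How well reads were assigned between copies was not measured.

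Across the first set, the 9 ddm1 genotypes had higher transcript levels of the photosynthesis genes than the 7 genotypes with DDM1. The members together took 11.4% to 31.1% of nuclear counts in the 22 ddm1 libraries (median 23.3%) and 6.20% to 21.4% in the 17 DDM1 libraries (median 15.4%). In the contrast of the genotype averages, 30 of 45 members rose and 0 fell at an adjusted p of at most 0.1 (edgeR quasi-likelihood, Benjamini-Hochberg over 17943 features). Over all features 20.6% were called up and 22% down, and 7.96% were called up by at least 2-fold, as were 11 of the members. The median log2 fold change was 0.64 over the members and -0.04 over all features tested, and 43 of the 45 values were positive. The p-values of this contrast rest on the spread of libraries within genotypes and leave out variation between genotypes. In whole leaves, fewer cells of a type and less RNA per cell cannot be told apart.

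**Figure D1:**
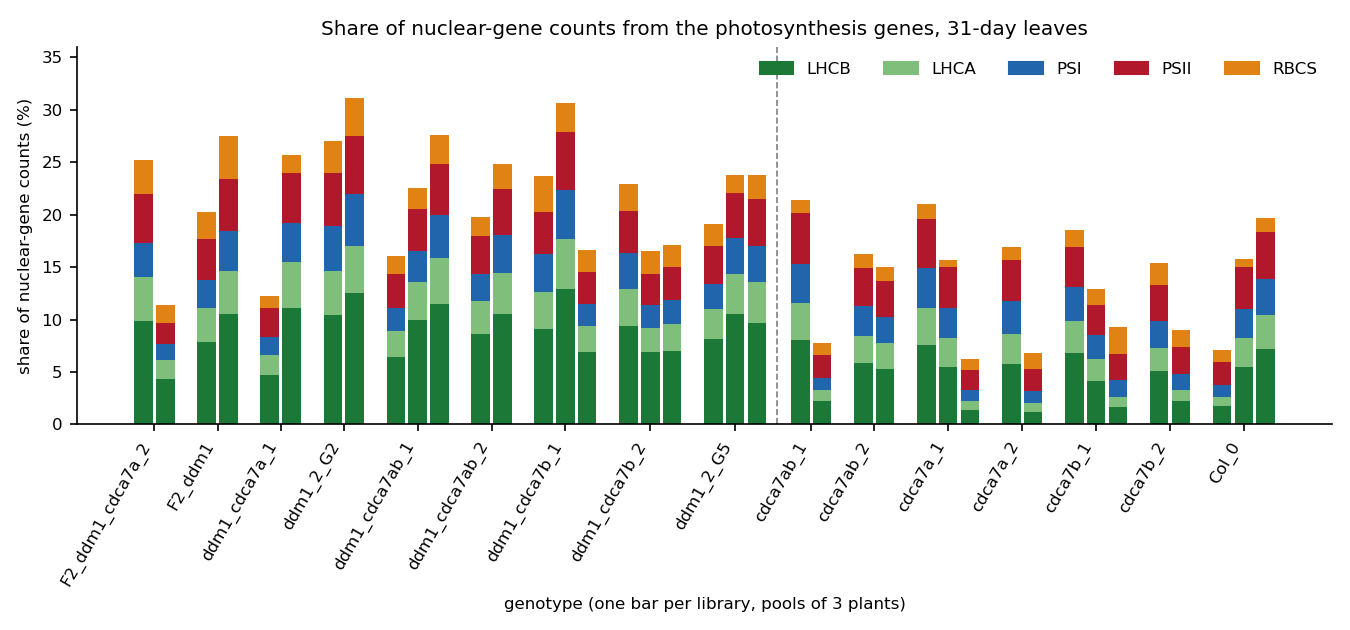
Share of nuclear counts (%) taken by each class of photosynthesis genes, as stacked bars for each of the 39 libraries of the first set, with ddm1 genotypes left of the dashed line and DDM1 genotypes right of it. The bars reach 11.4% to 31.1% in ddm1 libraries and 6.20% to 21.4% in DDM1 libraries, and libraries of the same genotype differ widely.

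**Figure D2:**
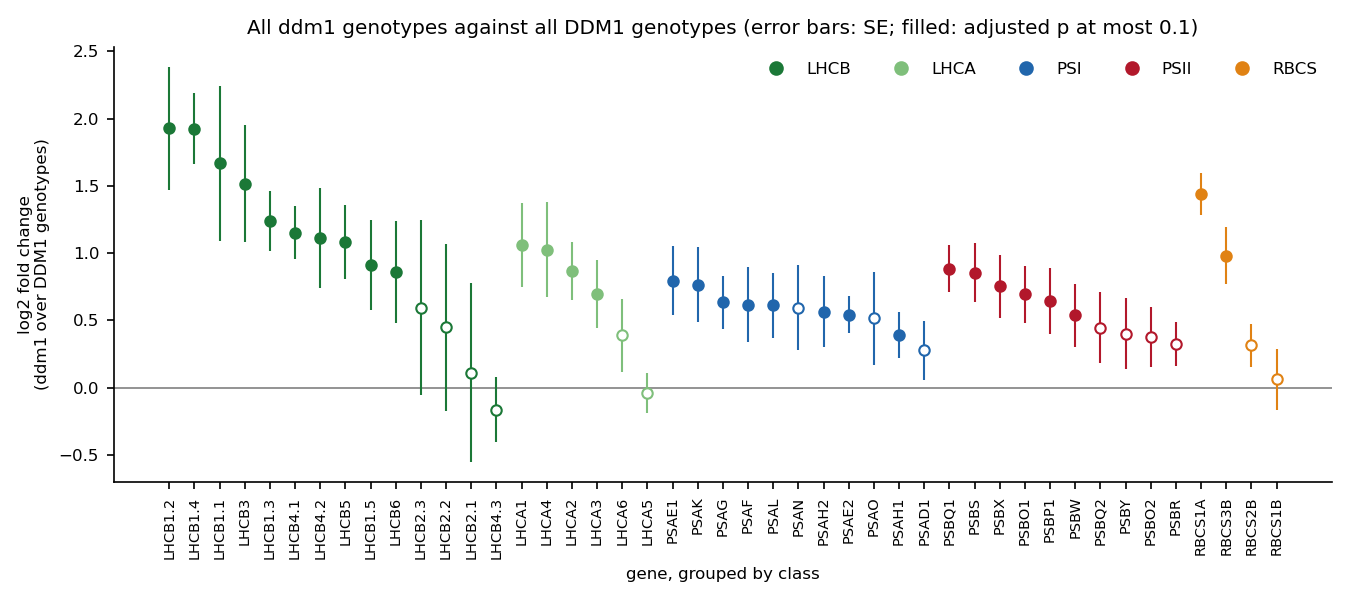
log2 fold change of each member between the ddm1 and the DDM1 genotypes (filled points for an adjusted p of at most 0.1, open points otherwise, with bars of 1 standard error), grouped by class, from the fit over all 39 libraries. LHCB1.2 and LHCB1.4 stand highest at 1.93, and LHCB4.3 lowest at -0.16.

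Of the 14 LHCB genes, which encode the antenna of photosystem II, 10 rose (median 1.1, 8 of them at least 2-fold). LHCB1.4 (AT2G34430, chr2:14524607-14525918), 1 of 5 copies of the major trimeric antenna protein, had 4164, 7843 and 10303 CPM at the lowest, median and highest of the ddm1 libraries, against 325, 2281 and 3843 CPM in the DDM1 libraries. Every ddm1 library thus lay above every DDM1 library, as for 3.59% of all features, and LHCB1.4 was the sole member with this separation. Its log2 fold change was 1.93 (SE 0.26, edgeR quasi-likelihood, Benjamini-Hochberg adjusted p = 9.24e-07). LHCB1.3, the LHCB copy with the highest mean level, had 11975, 21056 and 26206 CPM in ddm1 libraries and 2688, 10315 and 14546 CPM in DDM1 libraries (1.24, SE 0.22, edgeR quasi-likelihood, Benjamini-Hochberg adjusted p = 6.46e-05). The other copies at its locus on chromosome 1 rose as well, LHCB1.2 by 1.93 (SE 0.46) and LHCB1.1 by 1.67 (SE 0.57), with libraries of both groups overlapping. LHCB1.5 (AT2G34420, chr2:14522524-14523568), the neighbour of LHCB1.4 on the opposite strand, rose by 0.91 (SE 0.33). LHCB3, a minor trimer subunit, rose by 1.52 (SE 0.43), and the monomeric antenna genes LHCB4.1, LHCB4.2 and LHCB5 rose by 1.15, 1.12 and 1.08.

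The LHCB2 copies, the other major trimer subunit, were not called. LHCB2.1 had 119, 726 and 7043 CPM at the lowest, median and highest of the ddm1 libraries and 33.6, 865 and 4523 CPM in the DDM1 libraries. The groups overlapped over most of their range, with some DDM1 libraries below the lowest ddm1 library and 3 ddm1 libraries above the highest DDM1 library. Its log2 fold change was 0.11 with an SE of 0.67, a spread that leaves a change of 2-fold in either direction within reach. LHCB2.2 (0.45) and LHCB2.3 (0.59) had SEs of 0.62 and 0.65. Summed over its copies, LHCB1 gave 1.3 (SE 0.30) and LHCB2 gave 0.30 (SE 0.64). LHCB4.3, at 5.05 to 47.8 CPM the weakest member, gave -0.16 (SE 0.24).

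Of the 6 LHCA genes, which encode the photosystem I antenna, 4 rose (median 0.78). LHCA4, with the highest mean level of its class, had 2635, 9114 and 13570 CPM at the lowest, median and highest of the ddm1 libraries, against 715, 5030 and 8394 CPM in the DDM1 libraries. It rose by 1.03 on the log2 scale (SE 0.36, edgeR quasi-likelihood, Benjamini-Hochberg adjusted p = 0.0251), with overlapping libraries. LHCA1, LHCA2 and LHCA3 rose by 1.06, 0.87 and 0.70. The weakly expressed LHCA5 and LHCA6, known to help link the NDH complex to photosystem I, gave -0.04 (SE 0.15) and 0.39 (SE 0.27) and were not called.

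Among photosystem I subunits, 8 of the 11 tested rose, with a median of 0.59 and none past 2-fold. PSAE1, a subunit on the stromal side near ferredoxin, had 1959, 4522 and 7118 CPM at the lowest, median and highest of the ddm1 libraries and 821, 2854 and 4411 CPM in the DDM1 libraries (0.79, SE 0.25, edgeR quasi-likelihood, Benjamini-Hochberg adjusted p = 0.0161). PSAK (0.77), PSAG (0.64), PSAF (0.62), PSAL (0.61), PSAH2 (0.57), PSAE2 (0.54) and PSAH1 (0.39) rose too. PSAD1, PSAN and PSAO gave 0.28, 0.59 and 0.52 without a call, and the joined locus of PSAD2 gave 0.28 (SE 0.27).

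Of 10 photosystem II genes, 6 rose (median 0.59). PSBQ1 and PSBO1, extrinsic proteins of the oxygen-evolving complex, rose by 0.88 (SE 0.17) and 0.69 (SE 0.21), as did PSBP1 of the same complex (0.64). PSBS, the sensor of lumen acidity in energy quenching, had 298, 690 and 1673 CPM at the lowest, median and highest of the ddm1 libraries, against 128, 403 and 825 CPM in the DDM1 libraries (0.86, SE 0.22). PSBR had the highest mean level of the class and moved little: 7591, 11733 and 16221 CPM in ddm1 libraries and 5611, 9854 and 14447 CPM in DDM1 libraries gave 0.32 (SE 0.17, edgeR quasi-likelihood, Benjamini-Hochberg adjusted p = 0.13).

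The RBCS copies differed among themselves. RBCS1A (AT1G67090, chr1:25048158-25049667), the main small-subunit gene of leaves, had 4133, 12121 and 19708 CPM at the lowest, median and highest of the ddm1 libraries, against 2417, 4497 and 6744 CPM in the DDM1 libraries. It rose by 1.44 (SE 0.16, edgeR quasi-likelihood, Benjamini-Hochberg adjusted p = 1.44e-08), and 21 of 22 ddm1 libraries lay above the DDM1 median. RBCS3B rose by 0.98 (SE 0.21). RBCS2B gave 0.32 (SE 0.16) and RBCS1B 0.06 (SE 0.23), neither called, although the 3 B copies stand side by side on chromosome 5. By genotype means, 13 members had every ddm1 genotype above every DDM1 genotype, as did 6.03% of features: LHCB1.1 to LHCB1.4, LHCB3, LHCB4.1, LHCB4.2, LHCB5, LHCA1, LHCA2, LHCA4, PSAG and RBCS1A.

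**Figure D3:**
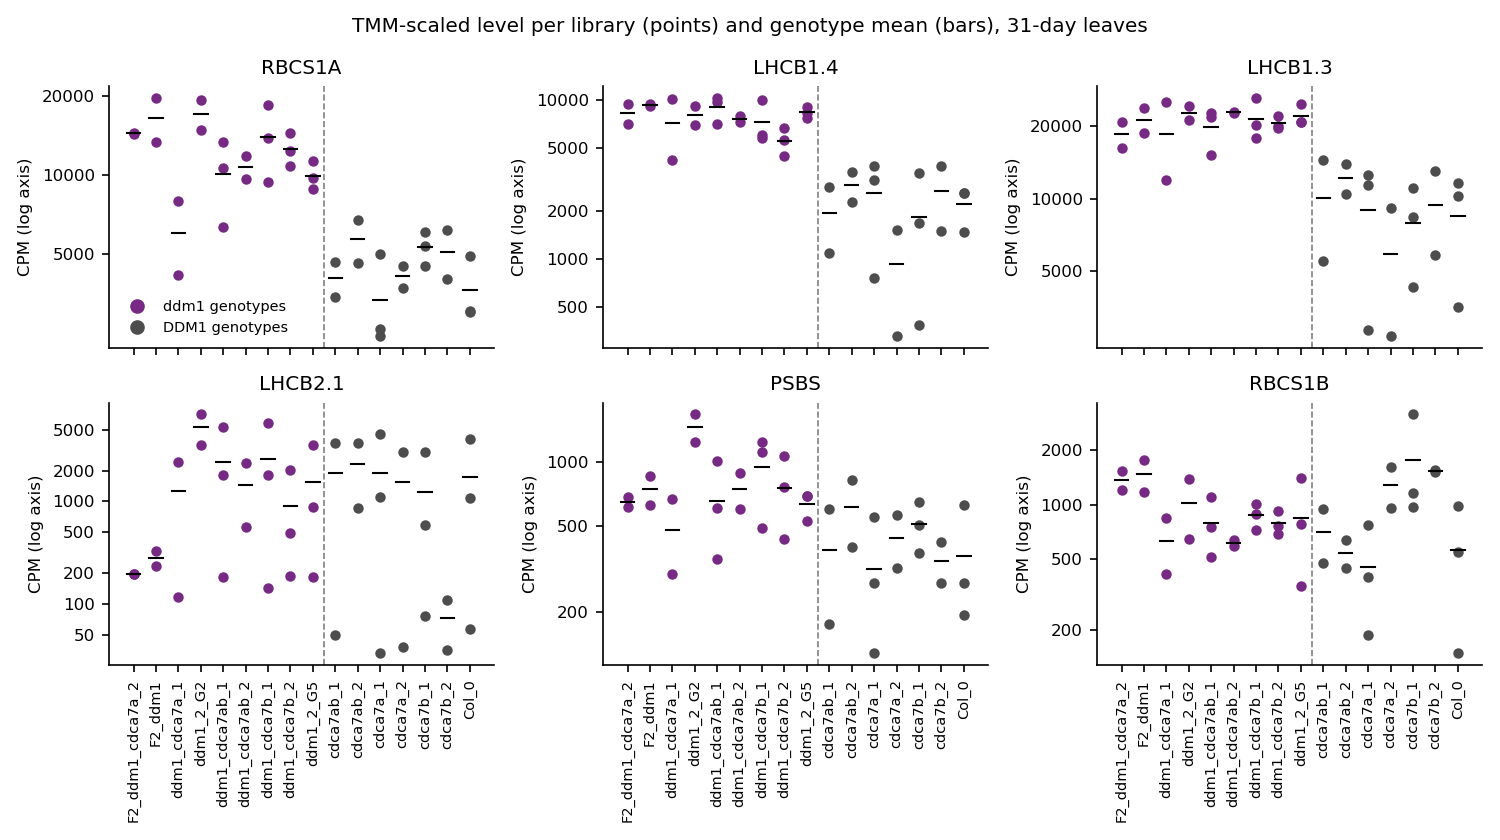
Levels (CPM, log axis) of RBCS1A, LHCB1.4, LHCB1.3, LHCB2.1, PSBS and RBCS1B in each library of the first set (points) with the genotype means (bars), ddm1 genotypes left of DDM1 genotypes. LHCB1.4 does not overlap between them (4164 CPM and above, against 3843 CPM and below), and LHCB2.1 spans 33.6 to 7043 CPM.

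The ddm1 generations were each compared with Col_0, so these comparisons share the 3 wild-type libraries. In F2_ddm1, the first generation without DDM1, 6 members rose and 0 fell (12.6% of features were called up and 9.5% down), with a median of 0.76. In ddm1_2_G2, 9 rose and 0 fell (12.6% up and 7.24% down), and all 45 values were positive with a median of 1.35. In ddm1_2_G5, 2 rose and 0 fell (9.44% up and 4.99% down), with a median of 0.58. The share of members that rose was near that of all features in F2_ddm1, above it in ddm1_2_G2 and below it in ddm1_2_G5. The later and the first generation, compared directly, gave 0 calls in edgeR's quasi-likelihood test (1 member at an unadjusted p under 0.05, 0 calls by DESeq2, and 0.0167% of features called up) and a median of -0.16, so a change over generations was not detectable with these libraries.

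RBCS1A had 13370 and 19708 CPM in F2_ddm1, 14833 and 19352 CPM in ddm1_2_G2, and 9712, 8824 and 11297 CPM in ddm1_2_G5, against 3009, 3006 and 4911 CPM in Col_0. All 7 ddm1 libraries lay above all 3 of the wild type, a separation whose share over all features was not counted. In F2_ddm1 its log2 fold change was 2.18 (SE 0.41, edgeR quasi-likelihood, Benjamini-Hochberg adjusted p = 0.000331), in ddm1_2_G2 it was 2.23 (SE 0.41, adjusted p = 0.000252) and in ddm1_2_G5 it was 1.45 (SE 0.38, adjusted p = 0.00976). RBCS1A was called in each fit that left out 1 library of these groups. Fitted with only the compared groups, the call was lost in ddm1_2_G2 (adjusted p = 0.102) and in ddm1_2_G5 (adjusted p = 0.114) and kept in F2_ddm1.

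LHCB1.4 had 9101 and 9366 CPM in F2_ddm1, 6992 and 9121 CPM in ddm1_2_G2, and 7731, 9046 and 8265 CPM in ddm1_2_G5, against 1478, 2581 and 2590 CPM in Col_0. These groups did not overlap either. Other members were separated as well, among them LHCB1.3 (18792 CPM and above in ddm1, against 11590 CPM and below) and LHCB1.2 (4307 against 3409 CPM). LHCB4.1, LHCA2 and PSBQ1 were separated too, so this is not particular to RBCS1A and LHCB1.4. The share of all features that separate these 7 ddm1 libraries from Col_0, as RBCS1A and LHCB1.4 do, was not counted. The log2 fold changes of LHCB1.4 were 2.06 (SE 0.67) in F2_ddm1, 1.86 (SE 0.67) in ddm1_2_G2 and 1.91 (SE 0.63) in ddm1_2_G5. Leaving out single libraries ended calls of LHCB1.4: it was lost in all 3 generations without Col_0 replicate 1, in ddm1_2_G2 and ddm1_2_G5 also without Col_0 replicate 2, in F2_ddm1 without F2_ddm1 replicate 3, and in ddm1_2_G2 without either ddm1_2_G2 library. Fitted with only the compared groups, it was lost in ddm1_2_G2 (adjusted p = 0.121) and kept in F2_ddm1 and ddm1_2_G5. LHCB1.1 and LHCB1.2 spread widely in the wild type. LHCB1.1 had 64 CPM in replicate 1 of Col_0, against 1687 and 3731 CPM in the other two, and 1645 to 9389 CPM in the 7 ddm1 libraries. Neither LHCB1.1 nor LHCB1.2 was called in any of the 3 generations.

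LHCB4.1 and PSBQ1 were called in F2_ddm1 (1.43 and 1.29) and ddm1_2_G2 (1.56 and 1.74), as were RBCS2B (1.15 and 1.42) and RBCS3B (1.66 and 1.95). In ddm1_2_G2, PSBS (2.00), LHCA6 (2.01) and PSAH2 (1.89), a docking subunit for antenna proteins at photosystem I, were called as well. PSBS had 1240 and 1673 CPM in ddm1_2_G2, against 194, 272 and 627 CPM in Col_0. These counts moved with single libraries. F2_ddm1 had 3, 2 and 1 calls without Col_0 replicate 1, Col_0 replicate 2 and F2_ddm1 replicate 3. ddm1_2_G2 had 5, 5 and 1 calls without Col_0 replicate 1, Col_0 replicate 2 and ddm1_2_G2 replicate 3, and ddm1_2_G5 had 1 call without either Col_0 replicate 1 or replicate 2.

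With DDM1 intact, a single photosynthesis gene was called in 1 of 6 cdca7 genotypes. Against Col_0, cdca7a_1, cdca7a_2, cdca7b_2, cdca7ab_1 and cdca7ab_2 had 0 calls in edgeR's quasi-likelihood test, where 0, 0, 1, 0 and 0 members had an unadjusted p under 0.05, and DESeq2 made 0 calls. Of all features, 0.0167% were called up and 0.0223% down in cdca7a_1, 2.02% and 0.373% in cdca7a_2, and 0.34% and 0.429% in cdca7b_2. In cdca7ab_1 they were 1.36% and 0.0502%, and in cdca7ab_2 1.4% and 0.0279%. Medians over members were 0.06, -0.32, -0.57, 0.01 and 0.44 in the same order, with a median SE over members of 0.61 to 0.70. These medians turned on single libraries: that of cdca7ab_1 was -1.31 without its replicate 2 and 0.72 without its replicate 3, and that of cdca7a_2 was -1.36 without its replicate 1 and 0.24 without its replicate 2. In cdca7b_2, 1 member was called without Col_0 replicate 1. In cdca7b_1, 1 member was called (5.81% of features up and 2.61% down): RBCS1B, with 973, 1167 and 3173 CPM, against 987, 150 and 548 CPM in Col_0 (log2 fold change 1.66, SE 0.58, edgeR quasi-likelihood, Benjamini-Hochberg adjusted p = 0.0957). The highest value stood in cdca7b_1 replicate 3, where 34 of the 45 members were lowest in their group. The call was lost without cdca7b_1 replicate 2 or 3 and without Col_0 replicate 2 or 3, and 2 members were called without cdca7b_1 replicate 1.

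Lines with altered CDCA7 genes in a ddm1 background were compared with the ddm1 line of the nearest generation. Of these, ddm1_cdca7a_1 carries the overexpressing promoter allele, with 33 to 38 CDCA7α reads, against 12 to 18 in ddm1_2_G2, and the other 5 carry the coding-sequence T-DNA or CRISPR alleles. There were 0 calls in all 6 comparisons in edgeR's quasi-likelihood test (at most 9 members at an unadjusted p under 0.05). Of all features, 0.00557% were called up in ddm1_cdca7a_1, 0.00557% down in ddm1_cdca7b_1, 0.0111% down in ddm1_cdca7b_2, 0.00557% up and 0.0111% down in ddm1_cdca7ab_1, 0.00557% in either direction in ddm1_cdca7ab_2, and 0% in F2_ddm1_cdca7a_2. DESeq2 called 2 members lower in ddm1_cdca7a_1 against ddm1_2_G2 and 0 elsewhere. In ddm1_cdca7a_1 all 45 values were negative, with a median of -0.92 and a median SE over members of 0.76. Its libraries stood at 12.2% and 25.7% of nuclear counts, against 27% and 31.1% in ddm1_2_G2. Without replicate 2 of ddm1_cdca7a_1 the median was -2.05. In F2_ddm1_cdca7a_2 against F2_ddm1 all 45 values were negative as well, with a median of -0.23. The medians of the 4 CRISPR lines against ddm1_2_G5 lay between -0.27 and 0.16.

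Libraries of 1 genotype differed from each other by far more for these genes than for most. The SD of log2 levels within genotypes had a median of 0.81 over the members, and 1.3 over the LHCB genes, at the median percentile of 89.6 and 97.9 among features above 50 CPM. In Col_0 the members took 7.09%, 15.8% and 19.7% of nuclear counts in replicates 1 to 3, and 41 of 45 members were lowest in replicate 1. The low libraries of cdca7a_1, cdca7a_2, cdca7ab_1, cdca7b_1 and cdca7b_2 stood at 6.20%, 6.78%, 7.80%, 9.31% and 8.98%, and 34 to 43 of the 45 members were lowest there. LHCB2.1 had 33.6 CPM in the low library of cdca7a_1, against 4523 and 1102 CPM in the other two. RBCS1B ran the other way: it was highest in the low library of cdca7a_1, cdca7a_2, cdca7ab_1, cdca7b_1 and cdca7b_2, and in replicate 1 of Col_0.

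The low libraries also had low levels of PRR7 and PRR5, clock genes that peak in daytime. These were named after their values were seen, and levels of other clock genes in single libraries are not given here. PRR7 had 12.1 CPM in replicate 1 of Col_0, against 88.1 and 121.8 CPM in replicates 2 and 3, and PRR5 had 6.7 CPM, against 128.3 and 137.5 CPM. In the low libraries of the 5 cdca7 genotypes above, PRR7 had 9.0 to 30.8 CPM and PRR5 3.7 to 9.3 CPM. Among ddm1 libraries, PRR7 was at 13.3 to 18.3 CPM in the lowest library of ddm1_2_G5, ddm1_cdca7a_1, ddm1_cdca7ab_1, ddm1_cdca7b_1 and ddm1_cdca7b_2, where the members took 12.2% to 19.1% of nuclear counts. Both F2_ddm1 libraries had low PRR7 (23.3 and 25.8 CPM) with 20.3% and 27.5% of counts on the members, against 7.09% at 12.1 CPM in Col_0. PRR7 did not order all libraries: F2_ddm1_cdca7a_2 had 25.2% and 11.4% of counts on the members with PRR7 at 22.6 and 28.9 CPM, and replicate 2 of cdca7b_2 had 15.4% at 28.1 CPM. Of the 10 clock genes listed, 0 were called between ddm1 and DDM1 genotypes in edgeR's quasi-likelihood test. Of all features, 20.6% were called up and 22% down there. With PRR7 and PRR5 this far apart between libraries of 1 genotype, the test could miss a difference between the groups. The labels give no time of harvest for single libraries, and the part of the clock genes in these differences was not tested.

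With the log2 level of PRR7 as a covariate, an alternative added after the data had been seen, 40 of 45 members rose between ddm1 and DDM1 genotypes and 0 fell (23.5% of features up and 24.7% down), with a median of 0.96. LHCB1.4 gave 2.18 (SE 0.16), LHCB1.1 2.7 (SE 0.24) and LHCB2.1 1.01 (SE 0.25). Against Col_0 the same fit called 40 members in F2_ddm1, 39 in ddm1_2_G2 and 35 in ddm1_2_G5, all of them higher, where 16.5%, 15.9% and 12.7% of features were called up. The medians were 1.61, 1.26 and 1.14. PRR7 was measured in the same libraries and was low in the low libraries, so this fit does not test the part of the clock.

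**Figure D4:**
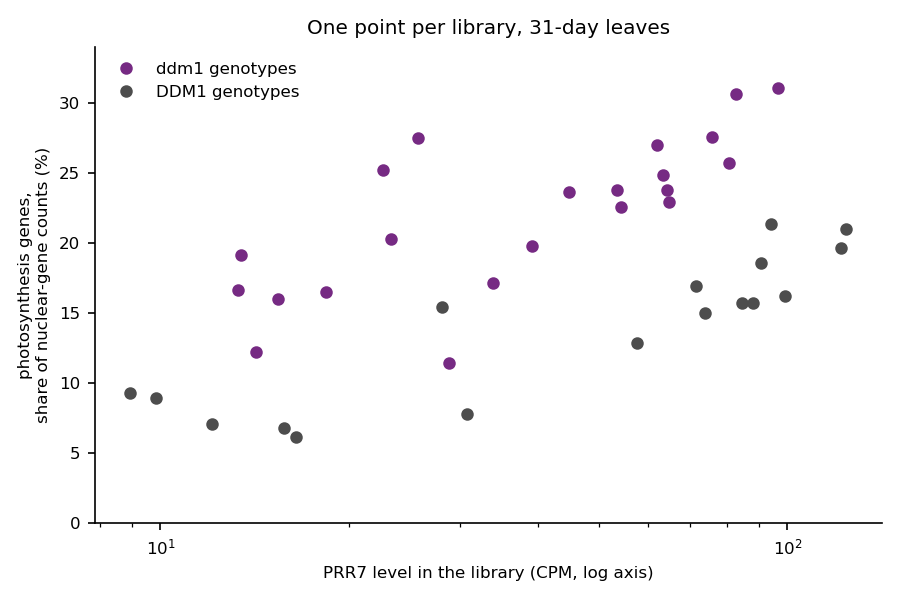
Share of nuclear counts on the photosynthesis genes (%) against the level of PRR7 (CPM, log axis) in each library of the first set, with ddm1 and DDM1 genotypes in separate colours. DDM1 libraries with PRR7 at 9.0 to 30.8 CPM include all those under 10%, and the F2_ddm1 libraries stand at 20.3% and 27.5% with PRR7 at 23.3 and 25.8 CPM.

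Other genes of photosynthesis were counted from further lists. Between ddm1 and DDM1 genotypes, 13 of 18 Calvin cycle genes rose and 1 fell (edgeR, adjusted p of at most 0.1, against 20.6% and 22% of all features). PGK2, a phosphoglycerate kinase, rose by 1.03 (SE 0.09), the triose phosphate isomerase TPI by 1.04 (SE 0.11) and GAPA1, a glyceraldehyde phosphate dehydrogenase, by 0.82 (SE 0.11), whereas the regulatory protein gene CP12-3 fell by 0.92. For chlorophyll synthesis 18 of 23 rose and 0 fell, among them CHLH (1.53, SE 0.30), a subunit of magnesium chelatase, CHLP (1.11), which reduces the phytyl chain, and CHLM (0.81), a methyltransferase. Of 14 genes for electron transport and ATP synthase, 6 rose and 1 fell. Of 5 plastid-encoded partners, 4 rose, among them psaA (0.96, SE 0.25) and rbcL (0.66, SE 0.30), with plastid transcripts at 5.55% to 38.8% of counts in ddm1 libraries and 6.40% to 43.9% in DDM1 libraries. Per the study's methods, reverse transcription was primed with oligo-d(T). Plastid counts therefore cover only the transcripts caught by this primer and need not follow plastid transcript levels.

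Of 16 regulators of photosynthesis genes, 0 rose and 4 fell, where 20.6% of all features were called up and 22% down, so that the share that fell was near that of all features: GNL, a GATA factor (-1.63, SE 0.21), HY5, a light-signalling bZIP factor (-1.05, SE 0.40), GLK2 (-0.63, SE 0.16) and PIF1, a repressor of greening (-0.60, SE 0.15). GLK1 gave 0.05 (SE 0.14). Of 11 genes marking senescence or chlorophyll breakdown, 9 fell and 1 rose. SGR1, which starts chlorophyll breakdown, fell by 1.27 (SE 0.13), and PAO, a later ring-opening enzyme, fell by 0.86 (SE 0.09). ORE1, a NAC factor that promotes senescence, fell by 1.66 (SE 0.19), whereas the stress gene SAG21 rose by 1.21 (SE 0.23). The summed level of the list ran from 880 to 5127 CPM in ddm1 libraries and from 693 to 6998 CPM in DDM1 libraries. Markers of other leaf cell types summed to 265 to 574 CPM in ddm1 libraries and 334 to 583 CPM in DDM1 libraries, with XCP1 and IRX3 of xylem and KAT1 of guard cells up and SUC2 of phloem down among 12 tested. Of 11 flower, seed and root genes 1 passed the filter, SEP3 of flowers, which rose by 1.79, and the seed storage gene SESA1 was at 0 to 3.73 CPM. Of 10 salicylic acid defence genes 2 rose and 0 fell, and of 4 antenna-like stress proteins 1 rose and 0 fell, both near the 20.6% of all features called up. The part of these lists in the members' change was not tested.

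In the single plants of the second set the members took 5.75% to 24.7% of nuclear counts, with a median of 20%. Their SD of log2 levels within groups had a median of 0.47. LHCB1.5, with 4628, 15352 and 21891 CPM at the lowest, median and highest plant, was the strongest LHCB gene there, and PSBR of photosystem II had 4560, 13101 and 17431 CPM. LHCA4 had 1990, 9543 and 12344 CPM, PSAL of photosystem I had 1432, 5157 and 7059 CPM, and RBCS1A had 2209, 7216 and 21905 CPM. Among members with a mean above 50 CPM, LHCB2.3 ranged widest, from 7.72 CPM in cdca7_ab_dCter replicate 5 to 1367 CPM in cdca7_ab_CDCA7 replicate 1, followed by LHCB1.4, from 27.9 CPM in cdca7_ab replicate 5 to 4257 CPM in cdca7_ab_CDCA7 replicate 1. PRR7 lay between 71 and 164 CPM in all 82 plants.

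Some plants were the lowest of their group for nearly all members. The members took 5.75% of nuclear counts in cdca7_ab_dNter replicate 2, 7.97% in cdca7_a_p6966 replicate 1, 10.3% in cdca7_ab replicate 5, 11.7% in WT replicate 5 and 13.4% in cdca7_b replicate 6, and in each of these plants 42 or 43 of the 45 members were the lowest of their group. SAG13, a marker of early senescence, had 529, 638, 372, 88.2 and 47.9 CPM in these 5 plants, against 1.6 to 12.4 CPM in the other 4 WT plants. The chlorophyll breakdown gene SGR1 had 69.8, 181, 76, 47.4 and 36.3 CPM in them and 26.1 to 43.5 CPM in the other 4 WT plants. The 36.3 CPM of cdca7_b replicate 6 thus lay within that WT range. WT plants serve as the reference here also for plants of other groups, and other senescence genes are left out here. Other plants had shares as low without being lowest for most members: cdca7_ab_dNter replicate 5 stood at 11.6%, and cdca7_ab_dCter replicates 5, 1, 6 and 8 stood at 10.4%, 11.7%, 12.6% and 12.8%. SAG13 had 51.3 CPM in that dNter plant and 80.7, 9.78, 205 and 170 CPM in those dCter plants, and SGR1 had 35.4 CPM and 71.6, 62.7, 55.2 and 88.7 CPM. The part of senescence in the low levels was not tested.

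The comparison of cdca7_ab_dCter, which expressed CDCA7α without its C terminus, with untransformed cdca7_ab gave the sole call of the second set. The members took 10.4% to 15.3% of nuclear counts in 7 dCter plants and 10.3%, 17.5%, 21.2% and 23.8% in 4 cdca7_ab plants, where 10.3% was replicate 5. LHCB1.4 had 46.6, 69.1 and 310 CPM at the lowest, median and highest of the dCter plants, against 2791, 755, 1674 and 27.9 CPM in cdca7_ab replicates 2 to 5. All dCter plants thus lay below 3 of the cdca7_ab plants and above the fourth. The log2 fold change was -3.68 (SE 0.80, edgeR quasi-likelihood, Benjamini-Hochberg adjusted p = 0.0351, where 0.257% of features were called down and 0.00571% up).

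Of the 45 members, 43 had negative values in cdca7_ab_dCter, with a median of -0.65, against 0.03 over all features. After LHCB1.4 the largest were LHCB2.3 (-2.59, SE 0.79), LHCB2.2 (-1.37, SE 0.41) and LHCB1.2 (-1.14, SE 0.40), none called. The count rested on single cdca7_ab plants: 0 members were called without replicate 2, without replicate 4 or with only the compared groups fitted, and 20 were called down without replicate 5, where 2.14% of features were called down. SAG12, a marker of late senescence, was called higher in dCter plants (log2 fold change 8.83, SE 1.81) with 1486 CPM in replicate 5 and at most 0.536 CPM in the other 6, and SAG13 was at 9.3 to 205 CPM in dCter plants and 3.0 to 372 CPM in cdca7_ab plants.

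**Figure D5:**
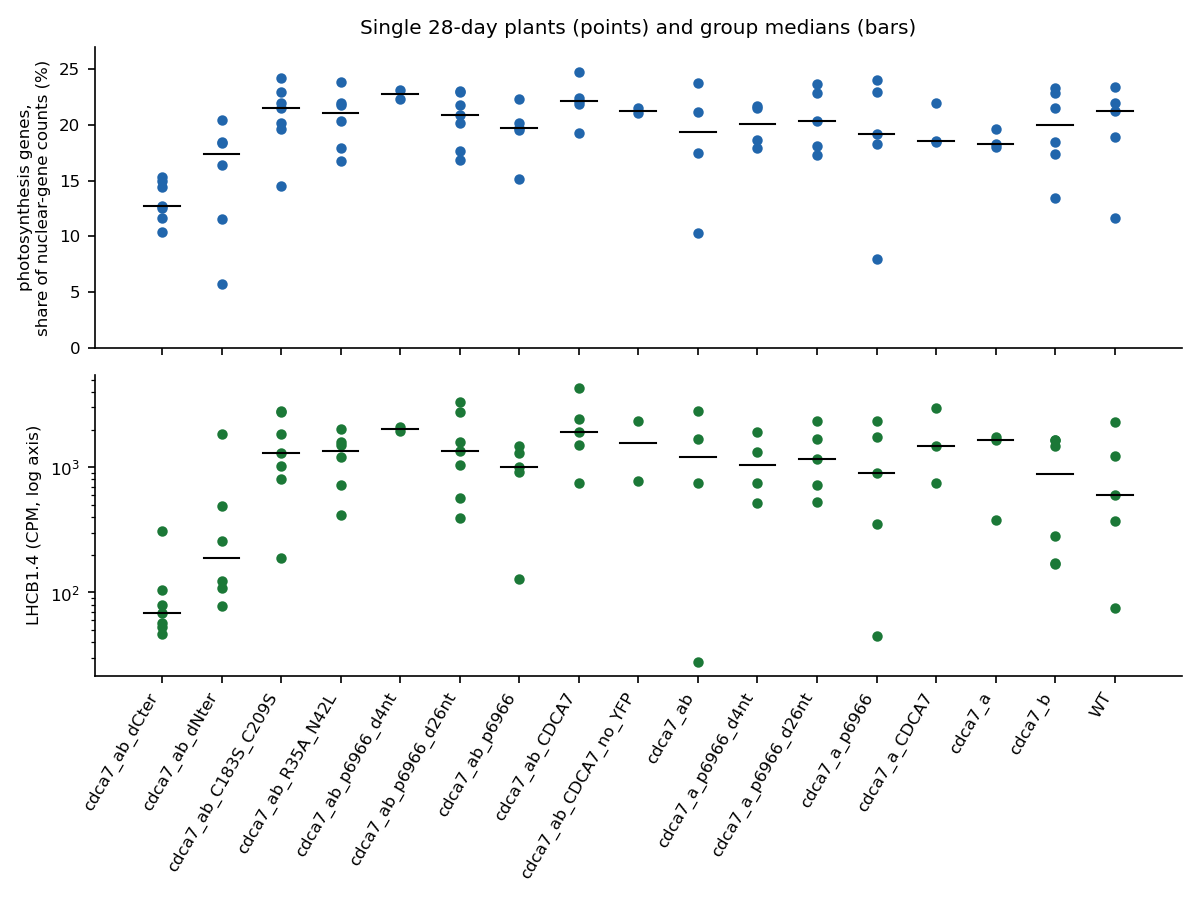
Share of nuclear counts on the photosynthesis genes (%, upper panel) and level of LHCB1.4 (CPM, log axis, lower panel) in each single plant of the second set (points) with the group medians (bars), by group. The 7 dCter plants lie at 10.4% to 15.3%, and single low plants stand out in other groups, down to 5.75%.

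The other 12 comparisons of the second set gave 0 calls among the members in edgeR's quasi-likelihood test, with 0 members at an unadjusted p under 0.05 and 0 calls by DESeq2. Of all features, 1.34% were called up and 0.103% down in cdca7_ab, 0.234% and 0.08% in cdca7_a and 0.04% and 0.00571% in cdca7_b, each against WT. In cdca7_ab_CDCA7 against cdca7_ab they were 0.04% and 0.937%, and in the other 8 at most 0.00571% in either direction. Against WT the medians were -0.09 in cdca7_ab, -0.13 in cdca7_a and 0.03 in cdca7_b, with median SEs over members of 0.30, 0.32 and 0.27. Against cdca7_ab they were 0.33 in cdca7_ab_CDCA7, -0.31 in cdca7_ab_dNter, 0.24 in cdca7_ab_C183S_C209S and 0.17 in cdca7_ab_R35A_N42L. The p6966 promoter gave -0.25 against CDCA7 in the cdca7_ab background and -0.01 in the cdca7_a background, and its d26nt deletion gave 0.14 and 0.11 against p6966. The no_YFP and d4nt groups entered the fit and no comparison. Comparisons with cdca7_ab share its 4 plants, among them the low replicate 5.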

How the data were processed

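The deposited tables hold, for 39 and 82 libraries, the authors' estimated counts per transcript on the sense strand, without normalization. Per the study's methods, duplicates were removed by molecular identifier, and reads were mapped with STAR 2.7.11a to TAIR10 and quantified with Salmon 1.10.1 on AtRTD3 transcripts and TEs. The RPM tables were not used. Transcript counts were summed per locus and rounded. Loci reaching 10 reads in 3 or more libraries were fitted by edgeR 4.0.16 (TMM, quasi-likelihood, 1 coefficient per group, all libraries of a set in 1 fit) under R 4.3.3. Benjamini-Hochberg adjusted p-values cover all loci tested, and the limit was 0.1. CPM are TMM-scaled. The 2 sets were never compared with each other. The labels do not say that libraries of a group are independent lines, so p-values measure the spread between these samples within their groups. In the pooled contrast, variation between the genotypes on either side does not enter them.

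The members and the other lists were chosen with earlier results of these data known. The genes named by rule are all members called in a comparison with at most 10 calls, otherwise the 5 largest in each direction, the member with the highest mean level of each class, PSBS, and from other lists up to 4 genes with the smallest adjusted p. Other genes were named after their values were seen. Alternatives were RLE normalization, DESeq2 1.42.0, no filter, only the compared groups, no organelle transcripts, a replicate block, summed families and each library left out in turn. Added once the data were known were fits with PRR7 as covariate, with library sizes without the members and with crossed replicate numbers, and the joined locus of PSAD2. The scripts were tested on simulated data. Replicate numbers paired the samples only for cdca7_ab against WT, by the correlation of deviations (0.24 to 0.73 over 4 pairs), and the block left 0 calls there. TAIR10.1 annotation from RefSeq gave names, coordinates and promoters, since the files hold no coordinates.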

Additional observations from a re-analysis of the deposited data

Results flagged for a closer look

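Among 91 group values checked in groups of 4 to 10 plants, 3 single plants lay far from the rest of their group, all in the second set. Chance marks about 1 in 20 groups, so this number is no more than chance would give. LHCA4, an antenna gene of photosystem I, was lowest in cdca7_ab_C183S_C209S replicate 6 with 6842 CPM, against 9326 CPM in the next of 7 plants and 11090 CPM in the highest. The same plant held the lowest value of 40 of the 45 members in its group. RBCS1A was highest in cdca7_ab_p6966 replicate 1 with 15102 CPM, against 7049 CPM in the next of 5 plants. RBCS1A was also highest in cdca7_b replicate 4 with 21905 CPM, against 11014 CPM in the next of 6 plants, and 29 of the 45 members were highest there. Their causes were not tested.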

How the results depend on the processing

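The pooled contrast of ddm1 with DDM1 genotypes had 30 members up in the main analysis, 32 with RLE normalization, 33 with DESeq2, 38 without a filter, 26 of 37 with summed families, 30 without organelle transcripts, 30 with library sizes taken without the members and 40 with PRR7 as a covariate. Over the 39 fits that left out 1 library it had 23 to 35, and it never had a member down. Smaller comparisons depended more on the processing. F2_ddm1 against Col_0 (6 calls) had 15 without a filter, 40 with PRR7, 2 from only the compared groups and 1 to 8 without single libraries. ddm1_2_G2 against Col_0 (9) had 26 without a filter, 39 with PRR7, 0 from only the compared groups and 1 to 13 without single libraries. ddm1_2_G5 against Col_0 (2) had 5 with DESeq2, 7 without a filter, 1 with summed families, 35 with PRR7, 1 from only the compared groups and 1 to 3 without single libraries. ddm1_2_G5 against F2_ddm1 (0) had 4 without a filter. cdca7b_1 against Col_0 (1) had 2 with DESeq2, 2 without a filter, 0 with summed families, 4 with PRR7, 0 from only the compared groups and 0 to 2 without single libraries. cdca7b_2 against Col_0 (0) had 6 without a filter and 0 to 1 without single libraries. ddm1_cdca7a_1 against ddm1_2_G2 (0) had 2 with DESeq2 and 8 without a filter, and ddm1_cdca7b_1 against ddm1_2_G5 (0) had 1 without a filter. cdca7_ab_dCter against cdca7_ab (1) had 0 with summed families, 0 from only the compared groups and 0 to 20 without single plants. Fits of only the compared groups rest on fewer samples, and elsewhere the cause was not tested. No called value changed sign, whereas medians over members did in several comparisons with at most 1 call, and that of cdca7b_2 against Col_0 was 0.55 with PRR7 as a covariate, against -0.57.

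Replicate numbers mark no shared batch in the labels, and outside cdca7_ab against WT the correlations gave no pairing. With the replicate block the pooled contrast had 30 calls, F2_ddm1 7, ddm1_2_G2 9 (8 of them shared, with PSAH2 lost and LHCB1.3 gained), ddm1_2_G5 2, cdca7b_1 1 and cdca7_ab_dCter 0, and no other comparison had a call. Same-numbered libraries of F2_ddm1_cdca7a_2 and F2_ddm1 deviated in opposite directions (-0.31), and a crossed pairing gave 0 calls.

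Single-genotype comparisons of the first set had 2 or 3 libraries per group and a median SE over members of 0.61 to 0.76. Changes of 2-fold were mostly out of reach there, and larger ones often were. In ddm1_2_G2 against Col_0 the median log2 fold change was 1.35, and 9 of 45 members were called. Comparisons with 0 calls therefore do not exclude such changes.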
